A study of Caenorhabditis elegans with 40 samples.

Results

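Old octr-1 mutants kept at 15 °C were compared with young octr-1 mutants across all genes, in 5 RNA sequencing libraries per group. The 10 libraries were chosen by their labels for genotype, age and temperature from the 40 libraries of a Caenorhabditis elegans series on temperature, aging and OCTR-1. Both groups carried the octr-1(ok371) allele, were fed E. coli OP50 and were sampled as whole animals, so each library holds RNA of all tissues. The old mutants came from 15 °C and were sampled on day 24 of adulthood. The young mutants were collected at the young-adult stage at 20 °C, with no day given in the labels. Age and temperature therefore cannot be told apart in this comparison, and every change described below is a change between these 2 states. Wild-type N2 animals sampled in the same 2 states, in 5 libraries each, served to test whether the change differed between genotypes. Old octr-1 mutants of day 14 at 20 °C, also in 5 libraries, are given as levels only. Another table holds the same reads in 5 columns named for 25 °C, so the temperature and day of these libraries are uncertain, and they are called here by the names of the tables the levels came from. The labels do not say whether the libraries of a group came from separate cultures, so p-values cover only the scatter among the libraries, part or all of which may be technical. A single allele stands for the mutant, and the labels do not describe its background.

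OCTR-1 is a G protein-coupled receptor for octopamine, the invertebrate counterpart of noradrenaline, and is known from sensory neurons of C. elegans, where it restrains innate immune and unfolded protein responses. Temperature sets the pace of life in this animal, which lives longer at low temperature. Known features of its aging are the end of self-fertile reproduction, decline of the gut and muscle, and the loss of protein homeostasis.

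Young mutant libraries held 31.2 to 41.0 M (10 to the power 6) gene-assigned reads and old mutant libraries 29.4 to 34.2 M. Wild-type libraries held 28.3 to 38.4 M reads when young and 29.1 to 34.5 M when old, and the mutants of day 14 held 27.9 to 39.2 M. At least 1 read was found for 17832 to 18406 features in young mutant libraries and for 23363 to 23755 in old ones. The 10 most abundant genes took 9.88% to 10.51% of the reads in young mutants and 4.16% to 4.61% in old mutants. The first principal component of the 10 libraries separated the groups and held 94.2% of the variance. The second held 1.3% and set young replicate 2 (-34.2) apart from the other young libraries (0.5 to 17). The common biological coefficient of variation was 5.68%.

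Most genes differed between old and young mutants. Of 15635 genes with at least 10 reads in at least 5 of the 10 libraries, edgeR's quasi-likelihood test called 7256 higher in old mutants (46.4%) and 6484 lower (41.5%) at a Benjamini-Hochberg adjusted p under 0.05. At least a 2-fold difference was called higher for 4570 genes (29.2%) and lower for 2781 genes (17.8%). These 4 shares are the background against which each gene group below is read. Group counts cover the members that passed the filter on reads, and members that passed it only through 1 state had to differ. The split between higher and lower rested on the filter and on the scaling. Without any 1 old library, the filter kept 14015 to 14041 genes, and 6047 to 6094 were called higher and 5918 to 5970 lower. At least 2-fold, 3258 to 3292 were then higher. With TMM the median log2 fold change of all genes was 0.09, whereas it was 0.63 with library size as the only scaling and 0.36 with upper-quartile scaling. The calls were then 10181 higher and 3813 lower with library size, and 8728 higher and 5077 lower with the upper quartile. At least 2-fold, 6221 of the 15635 genes were higher and 1637 lower with library size. Group counts with library size are read against these, not against the TMM shares. Fold changes and counts below are TMM values unless another scaling is named, and for many groups the counts or medians with library size follow. Levels are in CPM, the usual measure of reads scaled to library size, on the TMM scale of the 10 mutant libraries, unless wild-type animals or mutants of day 14 are named, for which the scale covers 25 libraries.

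**Figure D1:**
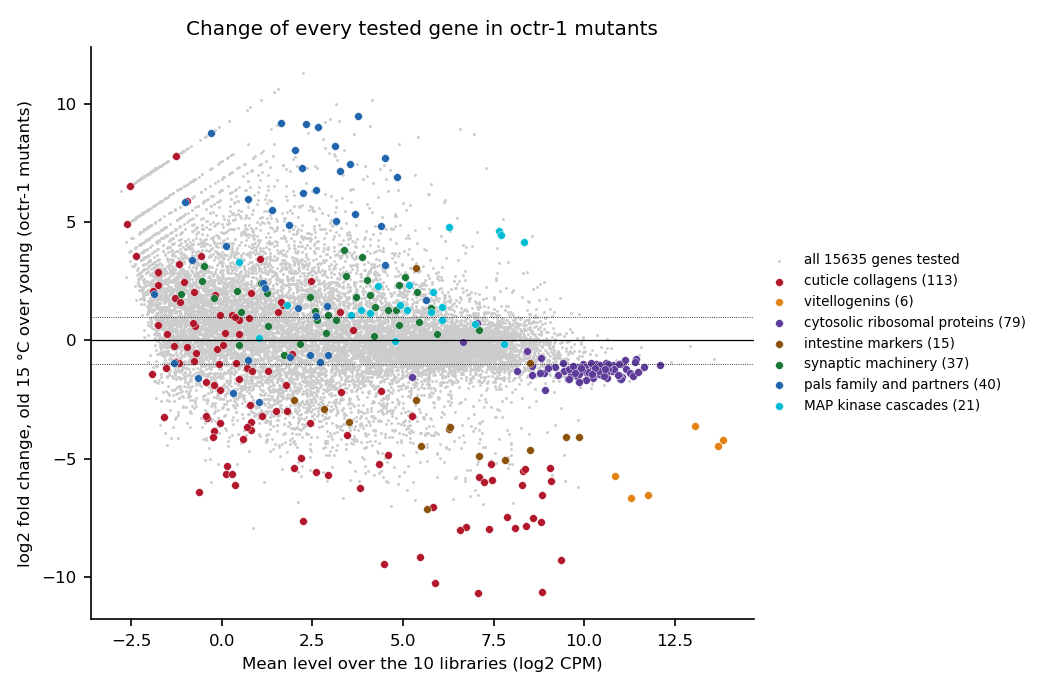
Each point is a gene tested, with its mean level over the 10 mutant libraries (log2 CPM) on the x axis and its log2 fold change, old 15 °C over young, on the y axis. Dotted lines mark 2-fold changes, and coloured points mark gene groups, of which pals family and MAP kinase cascades were chosen after values were seen. Cuticle collagens reach -10.69, pals genes reach 9.51, and cytosolic ribosomal protein genes lie around -1.30.

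The mutated gene itself gave few reads in either group. octr-1 had 10 to 19 reads per library in young mutants and 38 to 51 in old mutants, against 27 to 51 in young and 175 to 204 in old wild-type animals. Its level was 0.388, 0.709, 0.374, 0.453 and 0.396 CPM in young mutants and 1.02, 1.18, 1.09, 1.06 and 1.42 CPM in old mutants. The groups did not overlap, and the log2 fold change was 1.36 ± 0.20 (SE, n = 5 per group, edgeR adjusted p = 2.79e-06). The files do not show where in the gene these reads fall, so reads outside the deleted segment cannot be told from reads within it. On the 25-library scale octr-1 averaged 0.477 CPM in young and 1.19 CPM in old mutants, against 1.65 CPM and 5.13 CPM in the wild type, and its change did not differ detectably between genotypes (difference -0.29 ± 0.23 on the log2 scale, edgeR adjusted p = 0.369).

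Yolk protein genes, among the most abundant transcripts of young adults, were much lower in old mutants. Vitellogenins are yolk lipoproteins that the adult intestine makes and secretes for uptake by oocytes. All 6 vitellogenin genes were at least 2-fold lower in old mutants, with a median log2 fold change of -5.10, against 17.8% of all genes and a median of 0.09. vit-6 stood at 27769, 28627, 25594, 30392 and 28264 CPM in young mutants and at 1120, 1832, 1062, 1781 and 1576 CPM in old mutants. Its log2 fold change was -4.20 ± 0.18, and the groups were far apart. vit-2 averaged 25572 ± 1118 CPM (SD) in young and 1130 ± 240 CPM in old mutants. vit-3 fell by 6.67 and vit-1 fell by 6.56 on the log2 scale, but vit-3, vit-4 and vit-5 are near-identical copies whose single values are uncertain. Summed over the 6 genes, yolk transcripts made 82988 to 93231 CPM in young mutants and 3068 to 5017 CPM in old mutants, on the 25-library scale. Old mutants of day 14 at 20 °C held 11875 to 14483 CPM. The receptor that takes up yolk into oocytes, rme-2, fell as well, from 1364, 1659, 1584, 1494 and 1469 CPM to 440, 460, 487, 510 and 444 CPM (log2 fold change -1.64 ± 0.05).

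Genes of the intestine were lower as a group. Of 15 intestinal markers, 13 were at least 2-fold lower and 1, gem-4, was higher, with a median of -3.75. In whole animals, fewer cells of a type and less RNA per cell cannot be told apart. pho-1, an intestinal acid phosphatase, fell by 7.14 ± 0.09 on the log2 scale, from 100 ± 6.51 CPM to 0.69 ± 0.19 CPM. asp-1, an aspartyl protease of the gut, read 1654, 1845, 1675, 1876 and 1750 CPM in young mutants and 73.8, 108, 75.1, 125 and 117 CPM in old mutants (log2 fold change -4.09 ± 0.17). The GATA factor elt-2, the main transcription factor of the differentiated intestine, stood at 12.4, 11.9, 12.4, 12.4 and 13 CPM when young and at 1.23, 1.69, 1.57, 1.78 and 1.81 CPM when old. Its log2 fold change was -2.90 ± 0.10, and the second intestinal GATA factor, elt-7, fell by 2.51. vha-6, the subunit of the proton pump found on the gut's apical membrane, fell by 5.06 ± 0.09, while the same pump's widely used subunit vha-13 fell by 1.52 ± 0.04.

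Digestive and lysosomal protease genes were lower. Of 23 aspartyl and cysteine protease genes, 20 were at least 2-fold lower and 2 were higher, with a median of -3.37. cpl-1, a cathepsin L needed for yolk processing in embryos, averaged 1649 ± 82.2 CPM in young and 154 ± 15.9 CPM in old mutants. cpr-6 fell by 4.09, asp-2 fell by 5.22 and asp-13 fell by 5.23 on the log2 scale. Lysozyme and saposin-like genes, whose products attack bacteria in the gut, showed 20 of 33 members at least 2-fold lower and 7 higher. Among them spp-17 fell by 6.93, lys-4 by 4.77 and ilys-5 fell by 3.89, whereas lys-3, chosen after its values were seen, rose by 4.59 ± 0.17.

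Lipid and propionate metabolism, which the intestine also carries, fell in parts. Of 22 fatty acid synthesis and desaturase genes 11 were at least 2-fold lower and 3 higher. The stearoyl-CoA desaturase fat-7 fell by 5.80 ± 0.15 on the log2 scale, and elo-5, an elongase for branched-chain fatty acids, fell by 5.05 ± 0.11. acdh-1, the acyl-CoA dehydrogenase that opens the propionate shunt, was at 1795, 1848, 1754, 1861 and 1816 CPM in young mutants and at 21.3, 29, 17.3, 22.2 and 27.3 CPM in old mutants. That 1 gene had a log2 fold change of -6.22 ± 0.13. nhr-114, a nuclear receptor known for control of methionine-cycle genes, fell by 5.49 ± 0.06. Of 14 genes in the propionate shunt group 8 were at least 2-fold lower and none was at least 2-fold higher in this fit. Fatty acid activation and beta-oxidation genes showed 29 of 63 lower and 5 higher, or 20 and 14 with library size. Lipid-binding protein genes showed 11 of 17 lower, led by lbp-6 at -3.93, and far-2 fell by 2.03. Of 6 lysosomal lipase genes 3 were at least 2-fold higher and 1 lower, with a median of 1.36. lipl-5 fell by 3.27 and lipl-7 rose by 1.92 ± 0.06.

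Adult cuticle collagens fell deeply. Collagens build the cuticle, and adult animals express their own set in the epidermis. The 10 deepest falls among genes averaging 5 log2 CPM or more were all collagen genes, from col-8 at -7.86 ± 0.10 to col-93 at -10.69 ± 0.22. col-93 read 253, 249, 251, 274 and 317 CPM in young mutants and 0.0928, 0.0537, 0.106, 0.0279 and 0.501 CPM in old mutants, where it had 1 to 18 reads per library. col-20 read 868, 869, 840, 961 and 1087 CPM when young and 0.348, 0.403, 0.559, 0.53 and 0.946 CPM when old (-10.66 ± 0.15). Neither gene's groups came near each other. col-124 fell by 9.27, and col-19, the usual marker of the adult epidermis, fell by 7.51 ± 0.17. Across 113 collagens tested, 67 were at least 2-fold lower and 25 were higher, with a median of -2.13. The summed level covers all 158 members in the files. It went from 12552 to 15989 CPM in young to 243 to 311 CPM in old mutants (25-library scale). Among the rising members were col-89 (0.356 to 3.75 CPM) and col-113 (1.67 to 9.23 CPM), both chosen after their values were seen.

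Collagens that shape the body and are needed in larvae did not follow as a group. Of 18 such genes 5 were at least 2-fold higher and 5 lower, and their median of -0.52 became 0.02 with library-size scaling. dpy-17 rose by 1.23 ± 0.05 and dpy-14 by 1.42 ± 0.08. Hedgehog-related genes, which encode secreted proteins of the epidermis and other tissues, had 23 of 40 members at least 2-fold higher and 7 lower, with a median of 1.52. The abundant members grd-3 (-6.99 ± 0.12) and grd-5 (-5.98 ± 0.10) went against that count. Of the 15 epidermal markers 2 were at least 2-fold higher and 5 lower, with a median of -0.07. With library size 5 were higher and 3 lower and the median was 0.48, so no direction is given for them. Among them vab-10, a spectraplakin of the epidermal attachment, rose by 0.74 ± 0.04 and che-14 rose by 2.58 ± 0.12. The collagen col-19, named above and also among these markers, fell by 7.51 ± 0.17.

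Muscle transcripts were lower. Of 38 muscle contractile protein genes, 28 were at least 2-fold lower and 2 were higher, with a median of -1.87. unc-54, the major myosin heavy chain of the body wall, was at 682, 589, 586, 699 and 834 CPM in young mutants and at 37.9, 45.7, 36.6, 46.8 and 42.1 CPM in old mutants. The fall was 3.97 ± 0.12 on the log2 scale, with no overlap. Troponin genes went with it, unc-27 (troponin I) by 4.18 ± 0.06, pat-10 (troponin C) by 3.80 ± 0.10 and tnt-2 (troponin T) by 5.81 ± 0.12. Of 11 body wall muscle markers 9 were at least 2-fold lower, while hlh-1, the muscle-specifying MyoD factor, was 0.32 higher. Of 11 pharyngeal markers 6 were at least 2-fold lower and 2 higher, with a median of -1.07. With library size 2 were lower and 2 higher, with a median of -0.53. tni-4 fell by 1.71 and the pharyngeal myosin myo-1 by 1.46 ± 0.14.

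Markers of neurons were higher. The 16 neuronal markers had 11 members at least 2-fold higher and none at least 2-fold lower in this fit, with a median of 1.29. Their summed level was 240 to 256 CPM in young and 479 to 504 CPM in old mutants, whereas the sum of intestinal markers went from 5501 to 6033 CPM down to 537 to 650 CPM and that of body wall muscle markers from 2224 to 2897 CPM down to 309 to 360 CPM, all on the 25-library scale. Of 6 markers of coelomocytes and glia, 2 (33.3%) were at least 2-fold higher, a share close to the 29.2% of all genes. These were the glial genes ptr-10 (5.87 ± 0.12) and kcc-3 (2.44 ± 0.10). Somatic gonad markers moved both ways, with lim-7 of the sheath 1.80 higher and the gap junction gene inx-8 1.41 lower. No marker group was at 0 in either state. The part of these sums in the results on tissue-enriched groups was not tested.

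**Figure D2:**
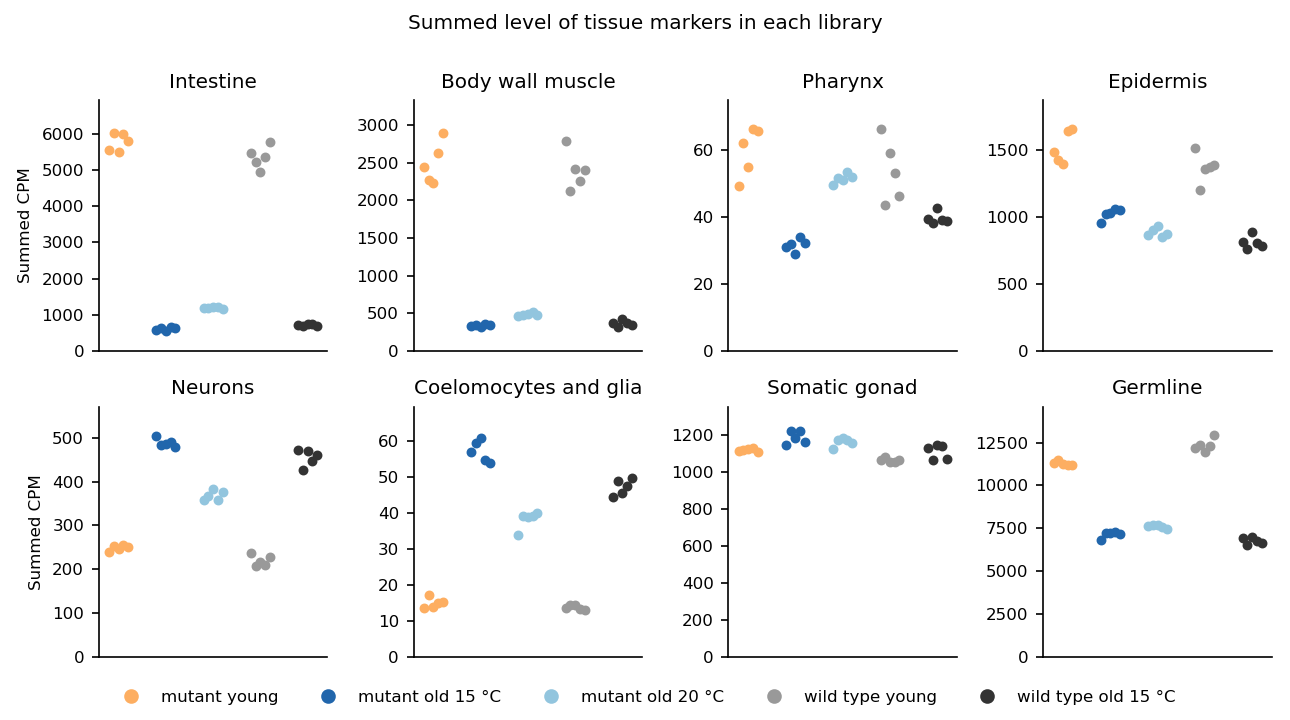
Points are libraries (5 per group) and the y axis is the summed CPM of the markers of each tissue, on a linear axis from 0 and on the 25-library scale. Intestinal and body wall muscle sums are low in all old groups (537 to 650 and 309 to 360 CPM in mutants at 15 °C), neuronal sums are high (479 to 504 CPM), and the somatic gonad sums stay between 1107 and 1222 CPM in the young and 15 °C mutants.

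Transcripts for the synapse and for neuronal signals rose. Of 37 genes of the synaptic machinery 25 were at least 2-fold higher, none was at least 2-fold lower, and 34 were called higher, with a median of 1.37. nrx-1, the synaptic adhesion protein neurexin, read 1.94, 2.43, 2.51, 2.81 and 2.31 CPM when young and 27.8, 26.8, 24.9, 25.9 and 29 CPM when old. It rose by 3.53 ± 0.08 and sad-1, a kinase of presynaptic assembly, by 3.84 ± 0.08. The synaptobrevin gene snb-1 rose from 115, 126, 124, 118 and 114 CPM to 158, 150, 158, 163 and 152 CPM (0.44 ± 0.04). Neuropeptide genes were at least 2-fold higher in 57 of 95 cases and lower in 9, with a median of 1.25. flp-15 rose by 3.72 ± 0.07, flp-5 by 4.19 ± 0.10 and nlp-16 by 5.22 ± 0.13, all 3 chosen after their values were seen. nlp-39 went from 3 reads in all young libraries together to 316 to 530 reads in each old library. In contrast, the 2 neuropeptide genes with the highest mean level both fell. The most abundant, nlp-40, a peptide of the intestine that times defecation, fell by 1.75 ± 0.06.

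Insulin-like peptide genes were also higher. Of 40 in the files 26 passed the filter, and 19 of these were at least 2-fold higher and 2 lower, with a median of 2.11 against 0.09 for all genes. Members that passed only through the old libraries, such as ins-20, had to be higher there. The count and median therefore do not describe the family as a whole. ins-17 rose from 3.39 ± 0.514 to 7.97 ± 1.12 CPM (1.27 ± 0.11). ins-34 was at 6.09 ± 0.9 and 6.18 ± 0.819 CPM and overlapped between groups. ins-20 had 1 read in all young libraries and 204 to 360 reads in each old library. daf-28 rose by 4.17 ± 0.34 and ins-7 by 2.20 ± 0.26, both peptides that activate the receptor DAF-2, though both stayed at low levels (2.74 and 1.72 CPM in old mutants). ins-20, daf-28 and ins-7 were chosen after their values were seen. Downstream of the receptor, 4 of 18 insulin signalling genes (22.2%) were at least 2-fold higher and 2 (11.1%) lower. Both shares were under those of all genes (29.2% and 17.8%), so the group as such did not stand out. akt-2 rose by 2.16 ± 0.06 and sgk-1 fell by 2.84 ± 0.07, both kinases that act in this pathway, and the transcription factor daf-16 rose by 0.38 ± 0.04.

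The octopamine pathway itself changed at both ends. Octopamine is made from tyrosine by the enzymes TDC-1 and TBH-1. tbh-1, the step from tyramine to octopamine, was at 309, 357, 347, 338 and 310 CPM in young mutants and at 100, 109, 92.5, 121 and 111 CPM in old mutants, without overlap. Its log2 fold change was -1.58 ± 0.07, and tdc-1 fell from 314 ± 13 to 186 ± 7.59 CPM (-0.70 ± 0.04). Receptors moved the other way. Of the 10 genes tested in the group, 6 were at least 2-fold higher, octr-1 among them, and 1, tbh-1, was lower. The tyramine receptors tyra-3 (1.87 ± 0.12), tyra-2 (1.46), ser-2 (1.65) and the tyramine-gated chloride channel lgc-55 (2.33 ± 0.18) rose, as did the octopamine receptor ser-3 by 0.60 ± 0.10, whereas the octopamine receptor ser-6 fell by 0.67, a call lost with library size (-0.13, edgeR adjusted p = 0.5). Levels of tbh-1 in mutants of day 14 at 20 °C averaged 303 ± 9.11 CPM, beside 110 ± 11.3 CPM on day 24 at 15 °C and 342 ± 22.5 CPM in young mutants (25-library scale).

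Chemoreceptor genes form one of the largest families of the worm and are known from single sensory neurons. Only 152 of 1342 family members in the files passed the filter on low reads, and 114 of these were at least 2-fold higher and 3 lower, with a median of 3.27. A gene that passed the filter only through the old libraries had to be higher there, so this count does not describe the family as a whole. srr-4 rose from 6.32 ± 0.584 to 151 ± 9.17 CPM (4.63 ± 0.06). sri-40 went against the count and fell from 39.4 ± 2.92 to 0.785 ± 0.208 CPM (-5.59 ± 0.10).

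Ribosomal protein genes were lower. Of 79 cytosolic ribosomal protein genes, 77 were called lower, 68 of them at least 2-fold, and the median was -1.30. With library size as the only scaling the median was -0.76 and 10 were at least 2-fold lower. rpl-3 was at 5785, 6056, 5883, 5822 and 6358 CPM in young mutants and at 2513, 2672, 2848, 2985 and 2848 CPM in old mutants (-1.06 ± 0.05). rps-26 fell by 1.74 ± 0.04 and rla-2, an acidic protein of the ribosomal stalk, by 2.09 ± 0.10. Together the 81 such genes in the files gave 151018 to 162133 CPM when young and 59934 to 66416 CPM when old (25-library scale). Of 38 translation factor genes 34 were called lower and 3 higher with TMM, against 22 lower and 14 higher with library size. eef-1A.1 fell by 0.79 ± 0.05, while eef-1A.2, the second gene for the same factor, rose from 298 ± 20.2 to 986 ± 52.7 CPM (1.78 ± 0.05). eef-2 was 0.25 lower with TMM and 0.29 higher with library size, so its direction depended on the scaling. The germline translation factor iff-1 fell by 1.58 ± 0.04.

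Mitochondrial and proteasome genes were lower. All 45 electron transport chain genes tested were called lower with TMM, 28 of them at least 2-fold, with a median of -1.11. With library size 40 were called lower, 10 of them at least 2-fold. atp-2, the beta subunit of ATP synthase, went from 3232 ± 96.6 to 1035 ± 59.1 CPM (-1.59 ± 0.04). Mitochondrial ribosomal protein genes had 25 of 67 members at least 2-fold lower, led by mrpl-12 (-2.12) and mrps-25 (-1.99), and 4 with library size. Glycolysis and TCA cycle genes had 22 of 46 at least 2-fold lower and 2 higher, or 6 and 4 with library size, with the aconitase aco-2 at -1.04 ± 0.03 and the pyruvate kinase pyk-2 at -2.33 ± 0.05. All 33 proteasome genes were called lower, 13 at least 2-fold. This became 26 called lower, 1 of them at least 2-fold, and 2 called higher with library size. The core subunits pas-2 and pas-4 fell by 1.60 and 1.43, and the base subunit rpn-1 by 0.65. The mitochondrial chaperonin hsp-60 fell from 950 ± 21.8 to 200 ± 8.67 CPM (-2.19 ± 0.04).

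Germline groups differed among themselves and with the scaling. Of 29 oocyte and eggshell genes 26 were called lower and 12 were at least 2-fold lower, with a median of -0.85. With library size 22 were called lower and 5 higher, 1 was at least 2-fold lower, and the median was -0.31. cbd-1, a chitin-binding eggshell protein, fell by 1.18 ± 0.05 and the chondroitin proteoglycan genes cpg-2 and cpg-3 by 0.75 and 1.46. Genes of germline stem cells and meiosis had 5 of 42 members (11.9%) at least 2-fold lower, under the 17.8% of all genes. Their median was -0.38 with TMM and 0.16 with library size, where 22 were called higher and 15 lower. The P granule genes pgl-3 (-1.43 ± 0.04) and glh-1 (-1.21 ± 0.04) and the Argonaute wago-1 (-1.05 ± 0.04) fell under both scalings. DNA replication and cell cycle genes had a median of -0.17 with TMM and 0.37 with library size, so no direction is given for that group. Sperm genes had 44 of 65 members at least 2-fold lower and 7 higher, with a median of -1.65. msp genes have near-identical copies, so single values such as msp-152 (-3.13) are uncertain. fer-1, a membrane fusion protein of sperm, went the other way, from 1.47, 1.08, 1.12, 0.936 and 1.06 CPM to 13.3, 15, 15.6, 12.7 and 11.7 CPM. Core histone genes had 14 of 24 members at least 2-fold higher, with his-64 at 1.92 ± 0.16, and the linker histone genes hil-7 and hil-1 rose by 3.15 and 2.88. Most core histone mRNAs lack a poly(A) tail and have near-identical copies, so poly(A) libraries hold few of them and single genes are uncertain.

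**Figure D3:**
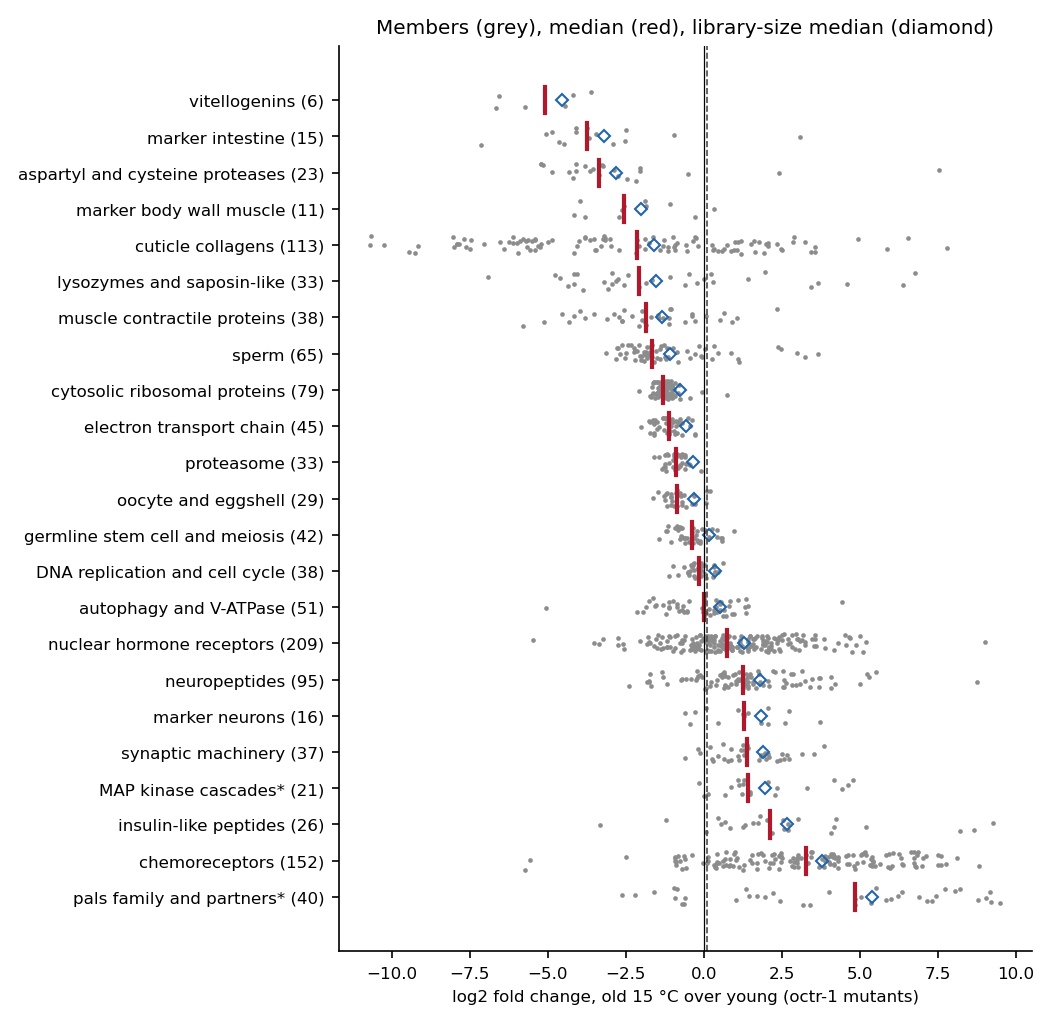
Grey points are genes, red lines group medians and open diamonds the medians with library size as the only scaling. The x axis is the log2 fold change, old 15 °C over young, the dashed line is the median of all genes (0.09), and an asterisk marks the 2 groups chosen after values were seen. Medians run from -5.10 for vitellogenins to 4.85 for the pals family and partners.

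Protein stress genes were mixed. Of 12 small heat shock genes 5 were at least 2-fold higher and 3 lower. hsp-16.2, a small heat shock protein induced by heat, was at 0.466, 0.411, 0.15, 0.181 and 0.595 CPM in young mutants and at 20.2, 15.3, 19.5, 17.3 and 15.4 CPM in old mutants. It rose by 5.65 ± 0.18 and hsp-16.41 by 4.97 ± 0.27, but these genes have close copies whose reads may be shared. The inducible hsp-70 rose from 1.12, 0.56, 0.711, 1.6 and 3.47 CPM to 24.2, 22.5, 24.2, 23.8 and 25.2 CPM (4.01 ± 0.31). The constitutive chaperones went down. hsp-1 fell by 0.96 ± 0.05, the Hsp90 gene daf-21 by 0.91 ± 0.04 and their co-chaperone sti-1 by 1.37 ± 0.04. sip-1, a small heat shock protein of oocytes and embryos, overlapped between the groups (965 ± 91 and 1027 ± 130 CPM). xbp-1, the transcription factor of the unfolded protein response, rose by 1.12 ± 0.04.

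Autophagy and V-ATPase genes, counted as 1 group, moved both ways, and the count of each depended on the scaling. The group had 24 called higher and 23 called lower out of 51, with a median of -0.01. It was not split into its parts, and it includes the proton pump genes vha-6 and vha-13, which fell as given above. At least 2-fold, 6 were higher and 13 lower with TMM, against 16 higher and 7 lower with library size, where the median was 0.53. sqst-1, the p62 receptor that carries ubiquitinated cargo to autophagosomes, read 34.3, 37, 31.5, 36.4 and 34.6 CPM in young mutants and 683, 692, 756, 722 and 767 CPM in old mutants (4.43 ± 0.05). lgg-1, the GABARAP protein of autophagosome membranes, rose from 306, 348, 300, 307 and 313 CPM to 773, 700, 758, 752 and 772 CPM (1.31 ± 0.04). hlh-30, the TFEB factor that drives autophagy genes and chosen after its values were seen, rose by 0.91 ± 0.05. Among outputs of DAF-16 and other longevity pathways, 13 of 31 genes were at least 2-fold higher and 5 lower. The long noncoding RNA tts-1, known from long-lived mutants, rose from 12.5 ± 3.68 to 425 ± 21.2 CPM (5.14 ± 0.15). lea-1, a desiccation protein, rose by 1.20 ± 0.04 and mtl-1, a metallothionein, by 4.27 ± 0.19, while sod-3, a superoxide dismutase, fell by 0.77 ± 0.13, a call lost with library size (-0.23, edgeR adjusted p = 0.0988). mtl-1 and sod-3 were chosen after their values were seen.

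Stress kinase cascades rose at most steps. The cascades were collected after values were seen, so their count is no independent evidence of direction. Of 21 genes 16 were at least 2-fold higher and none was at least 2-fold lower, with a median of 1.43. tir-1, the SARM adaptor at the head of the p38 pathway, was at 16.4, 15.4, 15.7, 15.8 and 18.5 CPM in young mutants and at 372, 381, 393, 373 and 418 CPM in old mutants (4.62 ± 0.05). Further down, sek-1 rose by 1.22 ± 0.04, the p38 kinase pmk-1 by 1.29 ± 0.06 and pmk-3, the p38 of axon regrowth, by 2.33 ± 0.05. nipi-3, a Tribbles pseudokinase that holds back the C/EBP factor CEBP-1, rose from 35.6, 37.8, 35.9, 34.6 and 35.2 CPM to 606, 607, 655, 601 and 627 CPM (4.16 ± 0.04). cebp-1 rose by 4.78 ± 0.06 and vhp-1, the phosphatase that shuts off these kinases, by 4.44 ± 0.05. kgb-1, a JNK-type kinase, overlapped between groups (28.2 ± 1.26 and 27 ± 1.67 CPM). atf-7, the transcription factor that PMK-1 acts on, fell by 0.16 ± 0.03 with TMM and was 0.38 higher with library size. It lost its call without any 1 of the 5 old libraries (-0.07 each time), where the filter also kept fewer genes.

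The pals genes had the highest median of the 57 groups examined, and they too were collected after values were seen. pals genes and partners make up the intracellular pathogen response, known to be switched on by microsporidia, by the Orsay virus and by proteasome block, and the files name most of them by sequence name. Of the 41 in the files 40 passed the filter on reads, and 31 of these were at least 2-fold higher and 3 lower, with a median of 4.85. B0284.1 (pals-26) read 0.31, 0.56, 0.411, 0.513 and 0.628 CPM in young mutants and 60.6, 58.5, 54.7, 54.1 and 55 CPM in old mutants (6.89 ± 0.09). C17H1.5 (pals-4) read 1.82, 1.12, 1.57, 1.27 and 1.49 CPM when young and 42.7, 41.4, 38, 37.7 and 40.6 CPM when old. B0284.4 (pals-28) had 5 reads in all young libraries and 895 to 1356 in each old library, and C17H1.6 (pals-5), the usual reporter of the response, had 2 reads in all and then 326 to 479 per library. The antagonistic regulators of the response also rose, C29F9.1 (pals-22) by 1.02 ± 0.09 and T17A3.2 (pals-25) by 1.44 ± 0.09. cul-6 and skr-3, a cullin and a Skp1-like adaptor of the ubiquitin ligase that acts in this response, rose by 3.17 ± 0.06 and 1.71 ± 0.06. The family lies in clusters of related genes, so reads may be shared between copies.

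Among genes averaging at least 5 log2 CPM, the largest single rises came mostly from outside these groups. T26F2.3 (eol-1), named for its role in olfactory learning and also known as a gene of the intracellular pathogen response, read 0.349, 0.299, 0.411, 0.423 and 0.462 CPM in young mutants and 211, 188, 185, 182 and 179 CPM in old mutants. That is a 495-fold rise (8.95 ± 0.08 on the log2 scale, edgeR adjusted p = 3.01e-25). B0507.8 read 0.698, 0.635, 0.486, 0.634 and 0.561 CPM, then 271, 252, 242, 235 and 239 CPM (8.73 ± 0.07). B0507.10 (ddn-1) rose from 2.06 ± 0.261 to 312 ± 27.5 CPM. F40H7.12 (ifas-1) went from 1 to 13 reads per young library to 2892 to 3611 reads per old library. It averaged 87.1 ± 3.17 CPM on day 24 at 15 °C, beside 8.24 ± 0.714 CPM on day 14 at 20 °C. tbb-6, a beta tubulin known as a marker of mitochondrial stress signalled through PMK-3, read 2.44, 2.39, 2.39, 2.27 and 2.38 CPM when young and 146, 132, 146, 142 and 130 CPM when old (5.93 ± 0.06). C49G7.12, tag-80, R06C1.6, K09F6.13 and Y58A7A.5 complete the 10 largest above that level, with log2 fold changes from 5.84 to 6.99.

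**Figure D4:**
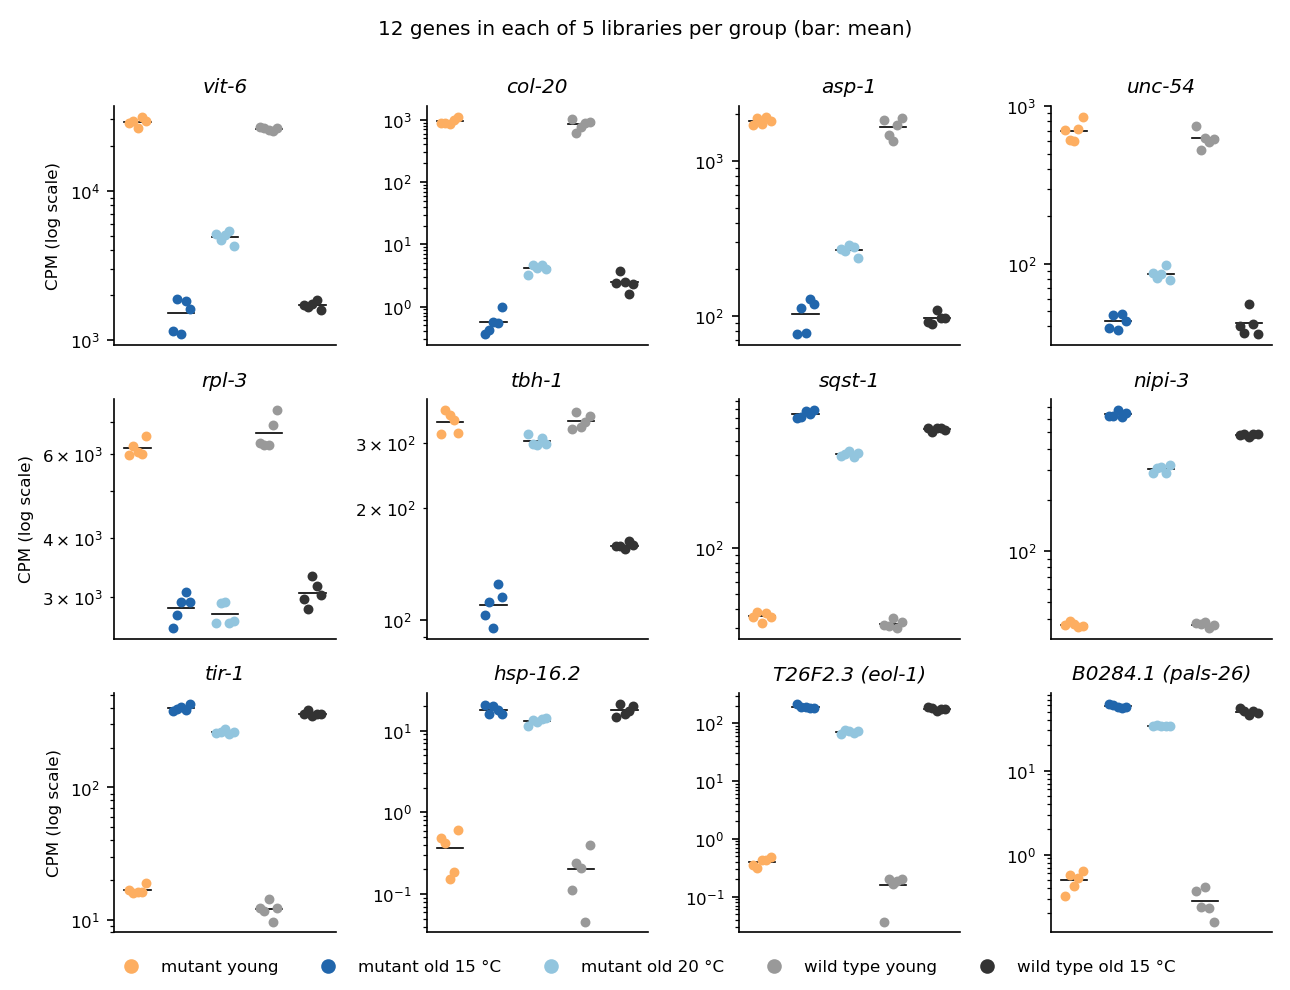
Points are libraries (5 per group, bars are means) and the y axis is CPM on a log scale and on the 25-library scale. In the mutants at 15 °C, vit-6, col-20, asp-1, unc-54, rpl-3 and tbh-1 sit below the young libraries and sqst-1, nipi-3, tir-1, hsp-16.2, T26F2.3 and B0284.1 above them. The 12 genes were picked from called genes, so their separation followed from that choice and says nothing of other genes.

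Immune effectors and detoxification enzymes split within each family. Of 108 C-type lectin genes, 50 were at least 2-fold lower and 25 higher (43 and 35 with library size), with clec-47 at -5.97 and clec-266, chosen after its values were seen, up by 3.29 ± 0.07. Of 21 PMK-1 effectors 10 were lower and 7 higher, and irg-2, a gene induced by bacterial infection, rose from 0.722 ± 0.201 to 57.9 ± 5.6 CPM (6.37 ± 0.11). Epidermal antimicrobial peptide genes had 18 of 36 higher and 9 lower, with nlp-34 at 3.64 ± 0.38 and fipr-13 at -6.84 ± 0.22. nlp-27, the abundant member, was 0.78 lower with TMM, and that call was lost with library size (-0.23, edgeR adjusted p = 0.199). Of 65 cytochrome P450 genes 41.5% were at least 2-fold higher and 26.2% lower, beside 29.2% and 17.8% of all genes, with cyp-13A10 at 4.58 ± 0.13 and cyp-33C8 at 3.70 ± 0.06. Of 60 UDP-glucuronosyltransferases 27 were lower and 12 higher (22 and 18 with library size), with ugt-47 at -5.55 and ugt-22 at -4.51. Glutathione S-transferases had 14 of 44 higher and 12 lower (20 and 8 with library size), among them gst-26 and gst-27 at -5.71 and -5.72. The flavin monooxygenase fmo-2, a known longevity gene, had 10 reads in all young libraries and 565 to 751 in each old library (7.89 ± 0.20), while fmo-1 fell by 3.70 ± 0.11.

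Regulator families are read beside the 29.2% of all genes that were at least 2-fold higher and the 17.8% that were lower. Of 209 nuclear hormone receptor genes 94 (45%) were at least 2-fold higher and 27 (12.9%) lower. With library size 120 were higher and 14 lower, and the TMM median was 0.75. nhr-63 rose by 4.65 ± 0.12 and nhr-49, a regulator of fat use, by 0.53 ± 0.03. F-box and MATH adaptors, which bring substrates to ubiquitin ligases, had 139 of 355 (39.2%) higher and 60 (16.9%) lower. The share of falls in these 2 families was thus no larger than that of all genes. With library size 176 of the adaptors were higher and 39 lower. fbxa-43 rose from 0.0765 ± 0.0512 to 20.6 ± 2.44 CPM (8.04 ± 0.19). Transthyretin-like genes had 13 of 48 (27.1%) higher and 17 (35.4%) lower (19 and 16 with library size), with the abundant ttr-51 up by 2.39 ± 0.09. Among GATA factors, elt-6 of the epidermal lineage rose by 2.82 ± 0.08 against the fall of elt-2. Of 7 iron genes 1 was at least 2-fold higher and 3 lower, or 3 and 2 with library size. Ferritin ftn-2 fell by 2.30 ± 0.05 and aco-1, the cytosolic aconitase, fell by 1.52 ± 0.04.

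Some transcripts had reads in old libraries and none in young ones at this depth. In 88 features no read was found in any young mutant library and at least 10 were found in every old one, whereas 0 features showed the reverse, in a comparison with 29.2% of tested genes at least 2-fold higher. W04G5.7 had 303 to 454 reads per old library. Against the limit of 3 reads over the 5 young libraries this was at least 446-fold higher. fbxa-75 had 102 to 158 reads, the nuclear receptor nhr-214 48 to 87, and the insulin-like peptide ins-8 40 to 81. Of the 88, 71 were protein-coding. These genes were chosen after their values were seen.

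Chromosomes and gene types differed in their shares. At least a 2-fold rise was called for 38% of X-linked genes and 34.7% of those on V, against 22.5% to 27.8% on the other autosomes, and the X had a median of 0.48. At least a 2-fold fall was also called more often on X (21.1%) and V (20.7%) than on the other autosomes (13.9% to 18.8%). Protein-coding genes were at least 2-fold higher in 28.5% of cases, lincRNAs in 48.2% of 56 and other ncRNAs in 55.1% of 176.

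Whether the change differed between genotypes was tested as an interaction over 20 libraries, 5 each of young and old mutants and wild-type animals. Of 16315 genes tested, edgeR called 2175 with a more positive change in mutants (13.3%) and 3246 with a more negative one (19.9%). The median difference was -0.07 with TMM and -0.15 with library size, and with library size 1334 were positive and 4319 negative. With RLE factors they were 2645 and 2854. A positive difference means a stronger rise or a weaker fall in mutants than in wild-type animals.

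Collagens and epidermal antimicrobial peptide genes had more negative changes in mutants, whether a deeper fall or a weaker rise. Of 120 cuticle collagens tested here 63 had a negative difference and 4 a positive one, with a median of -1.03. Of 19 body-shape collagens 14 were negative, with a median of -1.09. col-139 had the most negative value among genes averaging 5 log2 CPM or more over the 20 libraries of this test (-4.91 ± 1.26, edgeR adjusted p = 0.00602). It averaged 121 ± 33.8 CPM in young and 0.0949 ± 0.125 CPM in old mutants, against 43 ± 16.8 and 1.03 ± 0.944 CPM in the wild type. By these means, mutants started higher and ended lower. col-93 (-2.68 ± 0.76), col-129 (-2.45 ± 0.67), col-20 (-2.30 ± 0.40) and col-124 (-2.01 ± 0.30) also fell further and were the next collagens above that level. Old mutant libraries held at most 11 reads of col-139 and 18 of col-93, so the sizes and order of these differences are uncertain. Of 40 epidermal antimicrobial peptide genes 26 had a negative difference and none a positive one by this test, with a median of -1.19. Summed over the 64 members in the files, their level was 189 to 260 CPM in young and 140 to 200 CPM in old mutants. In the wild type it was 184 to 235 and 256 to 300 CPM. F45D3.4 rose in both genotypes, to 69.8 ± 11.1 CPM in mutants and 165 ± 20.9 CPM in the wild type, and differed by -1.96 (edgeR adjusted p = 4.79e-07).

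Gut and detoxification genes also leaned negative. Of 15 intestinal markers 12 had a negative difference, with a median of -0.85. Their sum was 537 to 650 CPM in old mutants and 685 to 737 CPM in old wild-type animals, after 5501 to 6033 and 4964 to 5772 CPM when young. elt-2 differed by -0.87 and stood at 1.66 ± 0.243 CPM in old mutants and 3.78 ± 0.0713 CPM in old wild-type animals. UDP-glucuronosyltransferases had 40 of 61 negative and 2 positive, transthyretin-like genes 33 of 49 negative and 2 positive, and lipid-binding genes 12 of 17 negative and 1 positive. Of the vitellogenins only vit-2 had a called difference (-0.45, edgeR adjusted p = 0.0199).

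Oocyte and eggshell genes leaned positive, and other germline groups varied. Of 29 oocyte and eggshell genes, 25 had a positive difference and none a negative one by this test, with a median of 0.33, which was 0.24 with library size, where 21 were positive. cbd-1 differed by 0.67 and rme-2 by 0.59. rme-2 averaged 1558 ± 116 CPM in young and 482 ± 30.4 CPM in old mutants, against 1834 ± 152 and 383 ± 32.3 CPM in the wild type. Germline stem cell and meiosis genes had 26 of 42 positive and 2 negative, and DNA replication and cell cycle genes 23 of 38 positive and 0 negative. With library size these counts were 15 and 2, and 11 and 1. Of 65 sperm genes 4 were positive and 4 negative, and of 20 early zygotic genes 5 were positive and 6 negative. fog-1, which sets sperm fate in the germline, rose from 34 ± 1.72 to 49 ± 0.987 CPM in mutants and went from 43 ± 2.53 to 32.5 ± 1.55 CPM in the wild type (difference 0.96, edgeR adjusted p = 1.18e-11).

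Single genes with the largest positive differences, again at 5 log2 CPM or more over the 20 libraries, came from several tissues. lon-1, a secreted protein of the epidermis that limits body length, averaged 30.7 ± 2.99 CPM in young and 112 ± 6.63 CPM in old mutants, against 39.1 ± 5.51 and 61.5 ± 4.18 CPM in the wild type (difference 1.24, edgeR adjusted p = 2.28e-08). The filamin gene fln-2 differed by 1.08 and unc-89, the obscurin of the muscle M-line, by 0.94. unc-89 averaged 48 ± 5.56 and 96 ± 3.68 CPM in mutants and 49.7 ± 8.21 and 52.8 ± 4.34 CPM in the wild type. F13D12.6 (ctsa-1.2), a serine carboxypeptidase, fell less in mutants (1.05), and T24D1.3 differed by 0.84. Insulin signalling genes had 11 of 18 positive (5 with library size) and 1 negative, the latter being sgk-1 (-0.87). Of 41 pals genes and partners 13 were negative and none was positive by this test, and their sums overlapped between old genotypes (515 to 594 CPM in mutants, 484 to 567 CPM in the wild type) but not between young ones (84.1 to 88.7 and 70.4 to 80.8 CPM). Of the stress kinase genes, nipi-3 rose further in mutants (0.43) and tir-1 less (-0.32).

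**Figure D5:**
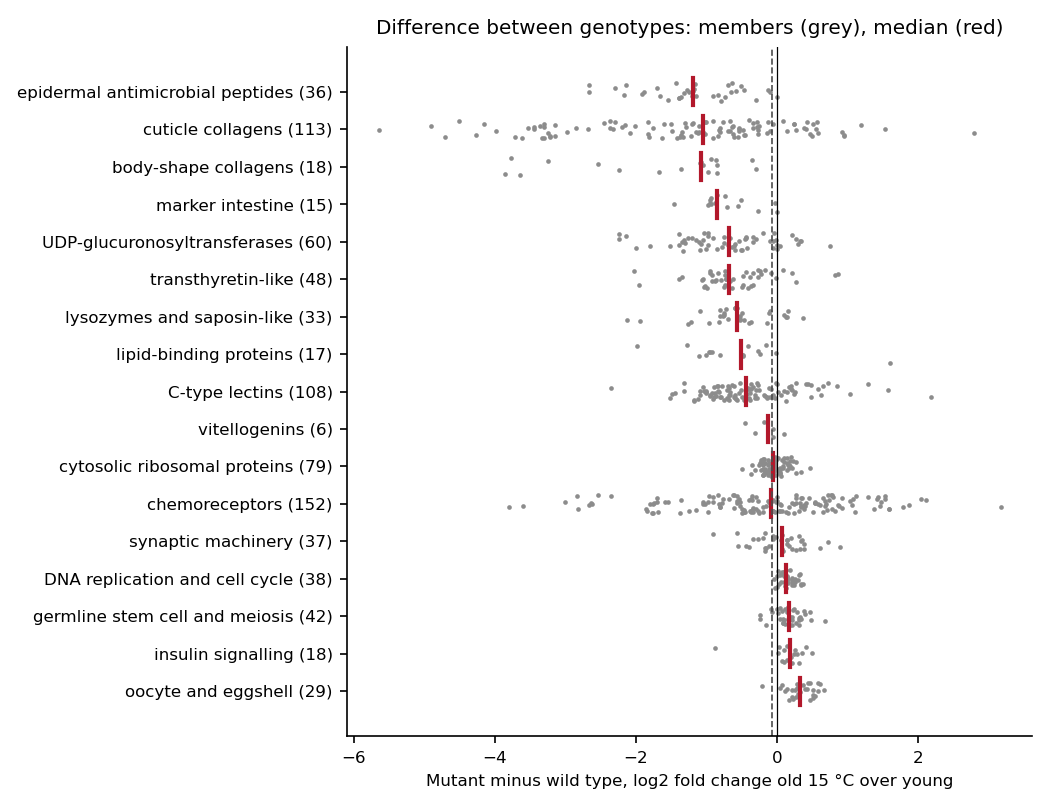
Grey points are genes tested in both comparisons and red lines are medians over them. The x axis is the mutant log2 fold change minus the wild-type one, old 15 °C over young, and the dashed line is the median of all genes (-0.07). Epidermal antimicrobial peptides (-1.19 over all genes of the group tested), cuticle collagens (-1.03) and intestinal markers (-0.85) lie to the left, and oocyte and eggshell genes (0.33) to the right.

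Levels in old mutants of day 14 at 20 °C are set beside the other mutant groups as a description, on the 25-library scale. By those names these mutants shared genotype with both groups and temperature with the young mutants, whereas against the mutants of day 24 both age and temperature differ. vit-6 averaged 4891 ± 454 CPM, beside 28937 ± 1778 in young mutants and 1517 ± 374 on day 24. All 3 of vit-6, sqst-1 and nipi-3 lay between the other groups. sqst-1 averaged 409 ± 13.7 CPM, beside 35.8 ± 2.23 and 745 ± 38.2. nipi-3 averaged 302 ± 14.6 CPM, beside 36.9 ± 1.26 and 637 ± 23. Other genes and groups did not follow that order. tts-1 was highest on day 14, with 753 ± 57.8 CPM on day 14 and 438 ± 21.9 CPM on day 24. Summed PMK-1 effectors had 253 to 277 CPM on day 14, beside 139 to 162 when young and 137 to 158 on day 24. Transthyretin-like genes had 3754 to 3830 CPM, beside 1535 to 1682 and 1939 to 2572. These levels carry the doubt over temperature and day given above, since the names rest on 2 tables that call these reads 20 °C against 1 that calls them 25 °C.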

How the data were processed

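Polyadenylated RNA of whole animals was prepared with a stranded kit, per the labels' protocols. The submitters used bcl2fastq, HISAT2 2.2.1 on build ce10, featureCounts and DESeq2 1.31.16, per the submitters' processing notes. How multi-mapped reads were treated is not given in the sources used here. The deposited tables hold signal per gene, counts that the authors had divided by size factors within each table. Dividing each column by the value of 1 read gave whole reads for 100% of values (tolerance 0.001 reads), so a count test was run on these recovered reads. Of 90 sample columns in 9 tables, 45 were used and 45 were not.

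The 10 mutant libraries were normalized together with TMM and tested with edgeR 4.0.16 (quasi-likelihood, robust, R 4.3.3), without a replicate block. Genes with at least 10 reads in at least 5 libraries were tested, and p-values were adjusted over all of them by Benjamini-Hochberg at 0.05. The genotype difference was an interaction over 20 libraries. Standard errors were the log2 fold change over the root of the F statistic. edgeR's tests were first tried on simulated data. Alternatives used limma 3.58.1 (pseudocounts of 1 and 0.1 CPM), DESeq2 1.42.0 and other scalings. Tables and figures used Python 3.11.15, numpy 2.4.6, pandas 2.3.3 and matplotlib 3.10.9.

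Groups followed the labels. Genes and lists were chosen with earlier results of these data known, and lists were corrected for wrong members after the files were read, while the pals and MAP kinase lists were added after values were seen. Named genes were octr-1, the 10 largest rises and 10 deepest falls above 5 log2 CPM without overlap, the 2 most abundant and 2 most changed members of each list, the most abundant genes of each group, and the 6 largest differences each way above 5 log2 CPM over the 20 libraries of that test. The text names only part of them, and other genes from the lists (such as sod-3, elt-7, hlh-1, vit-4, tyra-2 and ser-6) were added after their values were seen. Symbols are those of the files, of which 38832 matched the reference annotation and 1425 more matched through RefSeq names, while 1791 matched neither. No coordinates are given because the builds differ.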

Additional observations from a re-analysis of the deposited data

Results flagged for a closer look

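In groups of 5 libraries, 27 values were flagged because the gap to the nearest other library took more than 0.71 of the range. Of these 27, 1 was a total of reads, and the others came from 368 checks of named genes. Chance alone gives about 5% of groups. Old replicate 1 accounted for the deepest old library (34.2 M reads) and for T26F2.3 (211 CPM, others 179 to 188), B0507.10 (360, others 291 to 307), skr-3 (88.5, others 69.9 to 74.3), T17A3.2 (13.1, others 10.1 to 10.8), msp-152 (2.23, others 0.772 to 1.1), cyp-33C8 (57.1), kgb-1 (29.9), cpg-2 (1365, others 1671 to 1737) and daf-16 (148, others 162 to 165). Young replicate 2, the library set apart on the second principal component, was high for octr-1 (0.709, others 0.374 to 0.453), asp-2 (536) and lgg-1 (348) and low for lipl-7 (7.36).

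Old replicate 5 was high for col-93 (0.501, others 0.0279 to 0.106), col-139 (0.306, others 0 to 0.0558) and clec-266 (398). Old replicate 3 was high for tag-80 (120) and ptr-10 (26), old replicate 4 for pas-4 (136) and fmo-2 (20.9), and old replicate 2 was low for lgg-1 (700, others 752 to 773). Young replicate 5 was high for mrpl-12 (105) and iff-1 (1892), young replicate 3 was low for Y58A7A.5 (1.76, others 2.54 to 2.72), and young replicate 1 was low for lgc-55 (0.233, others 0.524 to 0.635) and was the only young library with reads of ins-20 (0.0388). All these levels are CPM.

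The change from young to old differed between genotypes in 5421 genes by the interaction test. Among genes named for it, the log2 difference was -4.91 for col-139, -2.68 for col-93, -2.45 for col-129, -2.30 for col-20, -2.01 for col-124 and -1.96 for F45D3.4. It was 1.24 for lon-1, 1.08 for fln-2, 1.05 for F13D12.6, 0.96 for fog-1, 0.94 for unc-89 and 0.84 for T24D1.3. All 12 were called by edgeR in each of the settings run.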

How the results depend on the processing

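Scaling moved the split of calls most. Library size as the only scaling left 3813 genes lower, 1637 of them at least 2-fold, and 1334 positive differences between genotypes. Without a filter on low counts 11674 genes were higher, 9115 of them at least 2-fold, and limma on log2(CPM + 1) gave 2520 at least 2-fold higher, since the pseudocount shrinks low genes. Leaving out each library in turn gave 11965 to 13585 called genes (6047 to 7173 higher, 5918 to 6412 lower), with 3258 to 4610 at least 2-fold higher and 2477 to 2717 lower. Without an old library the filter kept 14015 to 14041 genes. For the difference between genotypes these fits gave 4976 to 5639 called genes, 1981 to 2289 positive and 2975 to 3350 negative.

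Same-numbered young and old libraries did not deviate together (correlations of 0.09, 0.04, 0.07, 0.02 and -0.04). Libraries of unlike number had correlations from -0.21 to 0.19. The numbers thus gave no sign of pairing, but these correlations cannot show its absence. With a replicate block 13738 genes were called (7253 higher, 6485 lower) and 5441 for the difference (2198 positive, 3243 negative).

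Of 184 named genes, 180 were called and 4 of these lost the call with an unchanged sign in some setting, namely atf-7, nlp-27, ser-6 and sod-3. The sign turned with library size and the upper quartile for eef-2 (0.29 and 0.02), kgb-1 (0.53 and 0.26), atf-7 (0.38 and 0.11) and T24D1.3 (0.44 and 0.17). Without 1 old library, where the filter also kept fewer genes, kgb-1 took 0.04 to 0.10, and T24D1.3 took 0.04 without old replicate 1. T24D1.3 was called without the filter (-0.15), with the block (-0.10) and without young replicate 1 (-0.14) or 5 (-0.13), and sip-1 and ins-34 were called with library size (0.68 and 0.61). None of 114 list counts moved by more than 1.5 times with RLE factors, and 34 did with library size. Recovered reads carry counting error, and genes under the filter were not tested. Promoter motifs were not run.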
